A study of Ocimum americanum with 4 samples.

Results

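CONSTANS-like proteins and cyclic dof factors are plant transcription factors that link day length and the circadian clock to flowering. The results here are on 8 unigenes of these families in leaves of *Ocimum americanum* var. *pilosum*, a basil relative eaten as a vegetable, of 42816 unigenes in the assembled transcriptome. They are the COL9 unigenes Ob_24652, Ob_35177 and Ob_35999, the COL10 unigene Ob_36001, the COL11 unigene Ob_25844, the COL5 unigenes Ob_23546 and Ob_26837, and the CDF3 unigene Ob_24578. Each is named after the Swiss-Prot protein most like it, which for all 8 is a protein of *Arabidopsis thaliana*. The 8 were chosen by their FPKM in the control and chilling libraries from 17 unigenes with these 5 gene names, so the difference between the groups is part of the choice, and it is given below as a description with no test.

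RNA was sequenced from leaves of 30-day-old plants in 4 libraries. The 2 control libraries came from untreated plants grown at 21 °C by the labels, while the article gives a slightly higher temperature, and the 2 chilling libraries came from plants of the same age and variety that had been moved to 4 °C for 12 h. The question was how the leaf transcriptome of a chilling-sensitive species differs after a short time in the cold. The labels call the libraries of a group replicates, and the article calls them biological replicates. How many plants each library held is not given in the sources used here, so the p-values below measure only the spread between these libraries. By the article, control plants stayed at the normal temperature in otherwise equal conditions during the treatment. The article also states that the replicates for sequencing were collected together, and it does not say whether this holds across the groups. The hour of collection of either group is not given in the sources used here. Many genes of these families follow the time of day. In these libraries, an effect of cold and an effect of the hour therefore cannot be told apart.

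In *Arabidopsis*, CONSTANS (CO) activates the florigen gene FLOWERING LOCUS T (FT) in the phloem of leaves under long days. CONSTANS-like (COL) proteins share its B-box zinc fingers and its carboxy-terminal CCT domain. Cyclic dof factors (CDFs) bind DNA through a Dof zinc finger and repress CO and FT in the morning, and they are marked for degradation by the blue-light receptor FKF1 acting with GIGANTEA. CO, many COL genes and the CDF genes are themselves under the clock, and their RNA levels cycle over the day.

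Primers from the study's own list are shown for the members that have them, because they fix which transcript carried the name in its quantitative RT-PCR. The article counts both among its 5 most down-regulated genes. It reports that all 5 were repressed by chilling in that assay, on plants from a separate experiment. Those measurements were not re-analysed here. The capitals mark the last 5 bases at the 3′ end, from which the polymerase extends.
CDF3 Ob_24578 forward: gcggagatgagtgcttgGAATC
CDF3 Ob_24578 reverse: tcaatgctttgtgtcagtgtGTGAG
COL5 Ob_26837 forward: ggaagctcgctatcggaaATATC
COL5 Ob_26837 reverse: cgggtttcagcataagCCTTC
They are 22, 25, 23 and 21 bases long, with a GC content of 54.5%, 44.0%, 47.8% and 52.4% in the order printed. The sequences of the unigenes themselves were not used here, and no genome position is given for any of them.

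Levels are in FPKM, the fragments mapped to a unigene divided by its length and by the number of mapped reads, which can be compared between unigenes for that reason. The files used here give these values with no read counts, so no counting interval is printed, and the read totals that the article lists were not used. The summed FPKM was 875599 and 874864 in the control libraries and 773457 and 772255 in the chilling libraries, and 31370 to 32815 unigenes reached an FPKM of 1 in each. The leaf label was checked on 28 unigenes of mesophyll markers (Rubisco small subunit, Rubisco activase, chlorophyll a-b binding proteins and plastocyanin), none of which was at 0 in all libraries and which summed to 49160 and 49016 FPKM in the control libraries. All tests below are from limma on log2(FPKM + 1) over the 33036 unigenes whose mean FPKM reached 1, with Benjamini-Hochberg adjustment over all of them. A unigene was called where the adjusted p did not exceed 0.01 and the means differed by 2-fold or more. All 8 members passed that filter.

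After chilling, 5 of the 8 members had a higher level in both libraries and 3 had a lower one. The higher set was COL9, COL10 and COL11, from 4.11-fold to 17.6-fold in mean FPKM, and the lower set was both COL5 members and CDF3, from 44.3-fold to 53.4-fold. Control and chilling values overlapped for none of the 8. In these whole-leaf libraries, fewer cells of a type and less RNA per cell cannot be told apart. Over all tested unigenes, 15.3% were at least 2-fold higher in mean FPKM and 18.3% at least 2-fold lower, and 82.0% had groups that did not overlap. With the test, 3917 unigenes (11.9%) were called higher, 4548 (13.8%) lower and 25.6% in either direction. These shares are the background of the choice, and nothing is read from the members' counts against them.

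**Figure D1:**
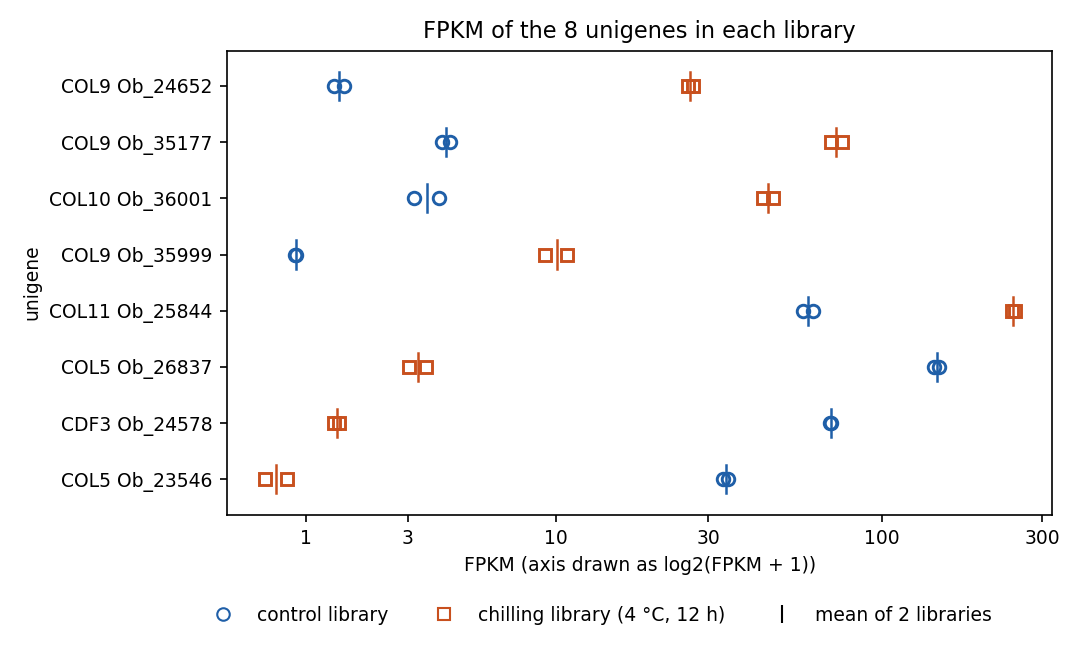
FPKM of the 8 unigenes in each of the 4 libraries, with FPKM on an axis drawn as log2(FPKM + 1), circles for control libraries, squares for chilling libraries and a vertical bar for the mean of the 2 libraries of a group. The squares lie to the right of the circles for COL9, COL10 and COL11 (upper 5 lines) and to the left for COL5 and CDF3 (lower 3 lines), and the CDF3 unigene goes from a mean of 70.4 to 1.46 FPKM.

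COL9 is known in *Arabidopsis* as a repressor of flowering that lowers CO and FT RNA. Ob_35177 has the closest match to it of the 3 (E-value 2e-130), and its best match in the nr database is a *Theobroma cacao* B-box protein with a CCT domain. It stood at 4.33 and 4.07 FPKM in the control libraries and at 76.02 and 70.4 FPKM in the chilling libraries. Both chilling values were far above both control values, and the libraries of each group lay close together. The means were 4.20 ± 0.184 and 73.2 ± 3.97 FPKM (SD, n = 2), a 17.4-fold difference that ranged from 16.3 to 18.7 over the 4 pairs of a chilling and a control library.

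The COL9 unigene Ob_24652 matches COL9 with an E-value of 9e-23, and its best nr match is the SLL2 protein of *Primula vulgaris*. Its level was 1.59 and 1.42 FPKM in the control and 26.0 and 26.93 FPKM after chilling. The groups were again well apart, with nearly the same ratio as Ob_35177 at a lower level. Mean FPKM was 1.50 ± 0.120 in the control and 26.5 ± 0.658 after chilling (SD, n = 2), 17.6-fold higher, with pairs from 16.4 to 19.0.

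The lowest of the COL9 members was Ob_35999 (E-value 1e-16), whose best nr match is a putative transcription factor of *Ricinus communis*. It had 0.87 and 0.86 FPKM in the control libraries and 10.87 and 9.19 FPKM in the chilling libraries. The control values were almost equal and the chilling values differed more from each other, with no overlap between the groups. From 0.865 ± 0.00707 to 10.03 ± 1.19 FPKM (SD, n = 2), the ratio was 11.6, and it ran from 10.6 to 12.6 over the pairs.

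The COL10 unigene Ob_36001 matches *Arabidopsis* COL10 (E-value 7e-73) and COL10 of grape. Its FPKM was 3.17 and 3.96 in the control libraries and 47.22 and 44.09 in the chilling libraries. The control libraries differed from each other by more than those of any other member with a higher level after chilling, relative to their mean (coefficient of variation 15.7%), and both stayed far below the chilling values. The mean went from 3.56 ± 0.559 to 45.7 ± 2.21 FPKM (SD, n = 2), 12.8-fold higher, with pairs from 11.1 to 14.9.

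The COL11 unigene Ob_25844 had the weakest name, with a Swiss-Prot E-value of 3e-06 and an uncharacterized grape protein as its best nr match. It was the most abundant of the 5, at 57.95 and 62.14 FPKM in the control and 244.56 and 248.92 FPKM after chilling. Its chilling values were the highest of any member in any library, while its ratio was the smallest of the 8. Mean FPKM was 60.05 ± 2.96 and 247 ± 3.08 (SD, n = 2), 4.11-fold higher with pairs from 3.94 to 4.30.

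COL5 can promote flowering in *Arabidopsis* when it is overexpressed. The COL5 unigene Ob_26837 (E-value 5e-96) had the highest control level of the members, at 143.27 and 148.53 FPKM, and stood at 3.54 and 3.04 FPKM after chilling. The control libraries were close to each other and the chilling libraries were both at a small part of that level. Mean FPKM was 146 ± 3.72 in the control and 3.29 ± 0.354 after chilling (SD, n = 2), 44.3-fold lower, with pairs from 40.5 to 48.9.

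Ob_23546, the other COL5 member (E-value 2e-91), was at 33.18 and 34.58 FPKM in the control libraries and at 0.51 and 0.76 FPKM in the chilling libraries. Both chilling values were under 1 FPKM and differed from each other by a large part of their own mean (coefficient of variation 27.8%). The mean was 33.9 ± 0.990 FPKM against 0.635 ± 0.177 FPKM (SD, n = 2), 53.4-fold lower, and the pairs ranged from 43.7 to 67.8, the widest range of the 8.

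CDF3 has been linked in *Arabidopsis* to tolerance of drought and cold as well as to flowering time. The CDF3 unigene Ob_24578 (E-value 4e-88, best nr match a Dof protein of sweet potato) had 70.08 and 70.68 FPKM in the control and 1.51 and 1.42 FPKM after chilling. The libraries of each group agreed closely and the groups were far apart. Mean FPKM was 70.4 ± 0.424 and 1.46 ± 0.0636 (SD, n = 2), 48.0-fold lower, with pairs from 46.4 to 49.8.

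Of all tested unigenes, 293 had a lower ratio of mean FPKM than the COL5 unigene Ob_23546, 297 a lower one than CDF3 Ob_24578 and 303 a lower one than COL5 Ob_26837. At the other end, 462 had a higher ratio than Ob_24652, 466 than Ob_35177, 578 than Ob_36001, 631 than Ob_35999 and 1673 than the COL11 unigene Ob_25844.

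The order of the levels differed between the groups, and the members were chosen by these levels, so that difference is part of the choice. Among the members with a higher level after chilling, and among those with a lower one, the order was the same in both groups. In the control libraries it ran from COL5 Ob_26837 through CDF3 Ob_24578, COL11 Ob_25844, COL5 Ob_23546, COL9 Ob_35177, COL10 Ob_36001 and COL9 Ob_24652 to COL9 Ob_35999. After chilling it ran from COL11 Ob_25844 through COL9 Ob_35177, COL10 Ob_36001, COL9 Ob_24652, COL9 Ob_35999, COL5 Ob_26837 and CDF3 Ob_24578 to COL5 Ob_23546. No neighbours in either order had overlapping values. The closest were CDF3 Ob_24578 over COL11 Ob_25844 and COL9 Ob_35177 over COL10 Ob_36001 in the control, with a ratio of means of 1.17 and 1.18, where the lowest Ob_35177 value (4.07) and the highest Ob_36001 value (3.96) nearly met.

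As sums, the 5 members with a higher level after chilling went from 70.2 ± 3.21 to 402 ± 3.63 FPKM and the 3 with a lower level from 250 ± 5.13 to 5.39 ± 0.240 FPKM (SD, n = 2). The 8 together summed to 320 ± 8.34 FPKM in the control and 407 ± 3.87 FPKM after chilling. Summed mesophyll markers were 17745 and 17742 FPKM after chilling, with 22 of the 28 called lower and 0 called higher, and the 21 unigenes of phloem markers (sucrose transporters, APL and phloem protein 2-like proteins) went from 259.3 and 262.5 to 666.0 and 662.9 FPKM, with 5 called higher and 4 lower. None of the marker unigenes was at 0 in all libraries. Guard cell markers (6 unigenes, 0 called higher and 2 lower) stayed between 34.46 and 38.16 FPKM in sum and floral markers (3 unigenes, 1 called higher and 0 lower) between 142.0 and 152.4 FPKM. The 3 unigenes of the root list, all matching Root phototropism protein 2 and all called lower, went from 190.8 and 186.4 to 32.29 and 33.56 FPKM. No other name of that list was matched, so nothing about root tissue is read from it. Over all tested unigenes, 11.9% were called higher and 13.8% lower. The part of these markers in the members' values was not tested.

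The names of the members are shared by 9 other unigenes, and these did not all go the way of the member of the same name. Both other COL9 unigenes rose. Ob_24651 was at 9.0 and 10.17 FPKM in the control and 25.7 and 26.52 FPKM after chilling (2.72-fold, adjusted p = 1.6e-05), and Ob_09133 at 0.3 and 0.88 FPKM in the control and 2.42 and 3.87 FPKM after chilling (adjusted p = 0.0047). With these, all 5 COL9 unigenes had higher values in both chilling libraries than in either control library, and their sum went from 16.7 ± 0.926 to 139 ± 2.90 FPKM (SD, n = 2). The call of Ob_09133, the lower of the pair, was lost when any 1 library was left out, with an adjusted p from 0.025 to 0.059. It was also lost with a pseudocount of 0.1 (adjusted p = 0.013), with no filter on FPKM (adjusted p = 0.023) and with no intensity trend in the prior variance (adjusted p = 0.022).

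Of the other COL10 unigenes, Ob_36000 rose from 0.29 and 0 FPKM to 3.85 and 2.92 FPKM (adjusted p = 4.8e-04), and Ob_24653 stood at 7.14 and 7.32 FPKM in the control and 14.28 and 13.01 FPKM after chilling, a 1.89-fold difference under the 2-fold limit. Rescaled to the same summed level in every library (TPM), Ob_24653 passed that limit and was called higher (log2 difference 1.01, adjusted p = 2.4e-04). The call of Ob_36000 was lost without control replicate 2 or either chilling replicate (adjusted p from 0.011 to 0.015). Ob_35999, Ob_36000 and Ob_36001 carry consecutive numbers, as do Ob_24651, Ob_24652 and Ob_24653. Whether such neighbours are pieces of the same transcript was not tested, and reads that near-identical copies share could have been split between them. The same holds for other unigenes with neighbouring numbers below, CDF3 Ob_26056 and CDF1 Ob_26057, Ob_27716 to Ob_27718 among the Dof names, and several of the ELF4 and APRR5 unigenes.

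COL11 split by unigene. Ob_28096, with a closer match to COL11 (E-value 4e-26) than the member Ob_25844, fell from 16.05 and 17.03 FPKM to 0.78 and 0.64 FPKM, 23.3-fold lower (adjusted p = 2.5e-06). Ob_40377 (E-value 1e-12) had 5.85 and 3.38 FPKM in the control libraries and a listed 0 in the chilling ones (adjusted p = 2.6e-04), a call lost without either chilling replicate (adjusted p = 0.014 and 0.015). The sum over the 3 COL11 unigenes, 81.2 ± 1.91 FPKM in the control and 247 ± 2.98 FPKM after chilling (SD, n = 2), therefore came to 99.7% from the member after chilling and to 73.9% in the control.

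The third COL5 unigene, Ob_33743, matches COL5 only weakly (E-value 2e-06). Its best nr match is the same uncharacterized grape protein as that of the COL11 member Ob_25844. Ob_33743 stood at 6.27 and 7.67 FPKM in the control and 11.57 and 11.16 FPKM after chilling. It was 1.63-fold higher and was not called, whereas both members of that name had lower chilling values. The COL5 sum was 187 ± 5.70 FPKM in the control, with 96.3% of it in the members, and 15.3 ± 0.467 FPKM after chilling (SD, n = 2), with 25.7% in the members.

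The other unigenes named CDF3 moved in opposite directions, and their best nr matches differ. That of Ob_26056 is a Dof protein of sweet potato, as for the member, and that of Ob_28673 is a DOF5.2-like protein of grape. The CDF2 unigene Ob_29703 has an nr match of the same description as Ob_28673. Whether all of them are CDF3 was not tested. Ob_26056 (E-value 1e-88) fell from 28.38 and 29.18 FPKM to 10.6 and 10.66 FPKM, 2.71-fold lower (adjusted p = 5.3e-06). Ob_28673 (E-value 2e-75) rose from 1.33 and 0.79 FPKM to 5.61 and 4.9 FPKM, 4.96-fold higher (adjusted p = 4.9e-04), a call lost without control replicate 2 or either chilling replicate (adjusted p from 0.011 to 0.020). The 3 together summed to 100 ± 0.608 FPKM in the control and 17.4 ± 0.523 FPKM after chilling (SD, n = 2), and the share of the member Ob_24578 was 70.2% and 8.44%.

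The whole CONSTANS-like and B-box family held 29 unigenes, 7 of them members. Of the 22 others, all tested, 6 were called higher (27.3%) and 8 lower (36.4%), beside 11.9% and 13.8% of all tested unigenes, and their median log2 difference was 0.21 beside -0.004 over all. The family sum was 887 ± 0.742 FPKM in the control and 816 ± 3.01 FPKM after chilling (SD, n = 2), and the 7 members made up 28.2% and 49.7% of it.

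B-box proteins are grouped by the make-up of their zinc fingers. CO and its nearest relatives up to COL5 have a pair of B-boxes, COL9 to COL15 have a B-box and another that has diverged, and COL16 belongs to a group with a single B-box. This split was made after the values were seen, and it gets no test. Over all tested unigenes, 11.9% were called higher and 13.8% lower, and no result is read from the counts by group against these shares. Of the 9 non-members in the group of CO and COL2 to COL5, 5 were called lower and 0 higher, and the group's 11 unigenes summed to 590 ± 1.39 FPKM in the control and 107 ± 1.33 FPKM after chilling (SD, n = 2). The uncalled 4 included Ob_10381, which carries the name CO with an E-value of 5e-10 and has a grape zinc finger protein-like sequence as its best nr match. It was at 2.71 and 2.93 FPKM in the control and 2.34 and 2.31 FPKM after chilling (adjusted p = 0.31). This unigene was picked for mention after its values were seen, and whether it is the CO gene itself was not tested. Of the 9 non-members among COL9 to COL15, 4 were called higher and 2, both COL11, lower, and the 14 unigenes of the group summed to 148 ± 1.69 FPKM in the control and 539 ± 1.27 FPKM after chilling (SD, n = 2). The COL11 member Ob_25844 alone held 60.05 and 247 FPKM of these sums, and its place in the group rests on a weak name. Its best nr match is also that of the COL5 unigene Ob_33743, which is counted in the other group.

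**Figure D2:**
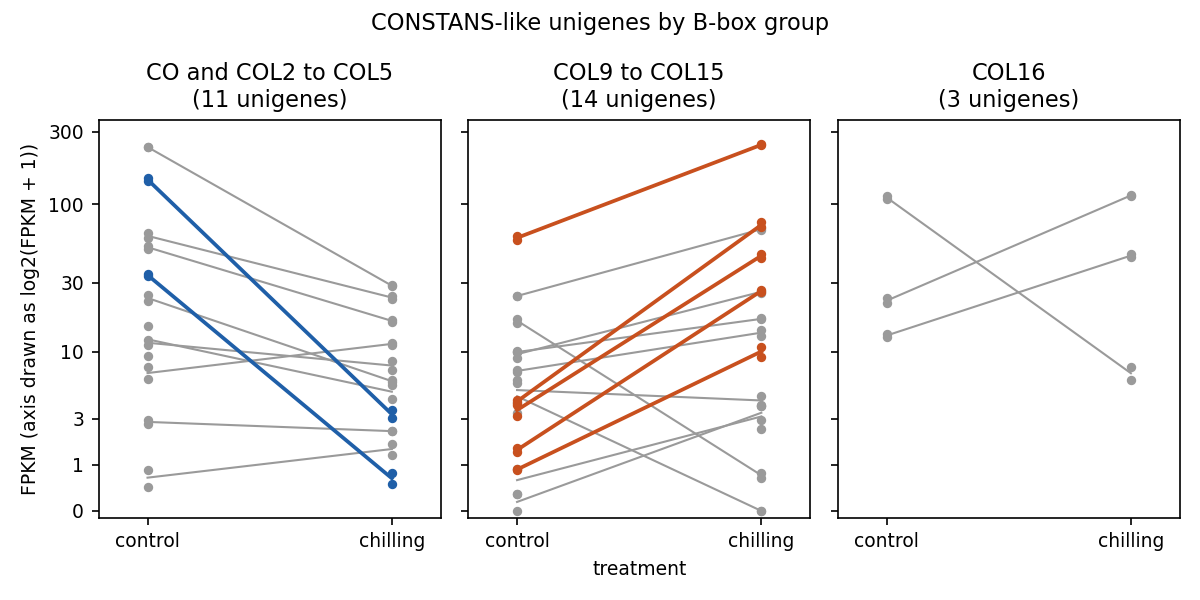
Unigenes of 3 B-box groups, with treatment on the horizontal axis and FPKM on a vertical axis drawn as log2(FPKM + 1), dots for single libraries and lines between the means of 2 libraries. Thick blue lines (COL5) and thick orange lines (COL9, COL10 and COL11) are the members and grey lines the other unigenes, and the sum goes from 590 to 107 FPKM in the left panel and from 148 to 539 FPKM in the middle one.

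The most abundant relative was COL4 Ob_18301, which fell from 236.9 and 240.31 FPKM to 28.38 and 29.03 FPKM, 8.31-fold lower (adjusted p = 9.1e-09). The unigenes named COL16 split, as those of COL11 did. The best nr match of Ob_14685 is a CONSTANS-LIKE 6-like protein of tomato, and that of Ob_28969 and Ob_18370 is CONSTANS-LIKE 16 of grape. Whether all of them are COL16 was not tested. Ob_14685 fell from 114.43 and 107.74 FPKM to 6.22 and 7.68 FPKM (15.98-fold, adjusted p = 2.6e-07). Ob_28969 rose from 21.85 and 23.55 FPKM to 114.82 and 114.36 FPKM (5.05-fold, adjusted p = 1.2e-07), and Ob_18370 rose from 13.4 and 12.65 FPKM to 44.59 and 46.84 FPKM (3.51-fold, adjusted p = 1.3e-06). Their sum differed little between the groups, at 147 ± 4.06 and 167 ± 2.30 FPKM (SD, n = 2).

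Dof proteins take their name from a single zinc finger that binds DNA, and the cyclic dof factors are the branch tied to flowering time. Apart from CDF3 Ob_24578, 32 unigenes had a Dof name and 27 of them could be tested, of which 4 were called higher (14.8%, beside 11.9% of all tested unigenes) and 7 lower (25.9%, beside 13.8%), with a median log2 difference of 0.01. The member alone held 28.4% of the summed Dof FPKM in the control and 1.04% after chilling, as the sum over all 33 went from 248 ± 0.721 to 141 ± 0.693 FPKM (SD, n = 2). Among the 7 cyclic dof unigenes the sum went from 118 ± 1.34 to 28.5 ± 1.21 FPKM (SD, n = 2). Besides the CDF3 unigenes, CDF1 Ob_26057 fell from 10.99 and 11.27 FPKM to 3.0 and 2.3 FPKM, 4.20-fold lower (adjusted p = 6.7e-05), a call lost by a narrow margin without either control replicate (adjusted p = 0.010 and 0.011). The other CDF1 unigene and the tested CDF2 unigene were not called.

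**Figure D3:**
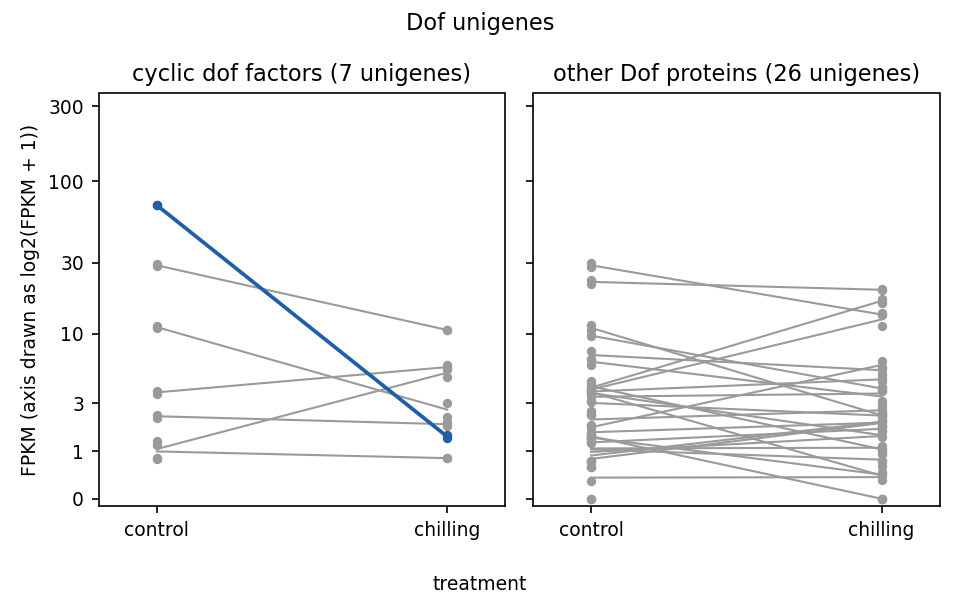
Unigenes with a Dof name, with treatment on the horizontal axis and FPKM on a vertical axis drawn as log2(FPKM + 1), dots for single libraries and lines between the means of 2 libraries. The thick blue line is CDF3 Ob_24578, from 70.4 to 1.46 FPKM, and the grey lines are the 6 other cyclic dof unigenes (left) and the 26 other Dof unigenes (right), of which none starts as high.

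Outside the cyclic branch, the largest called differences were upward for DOF2.2 Ob_27718, from 4.21 and 3.85 FPKM to 16.23 and 17.3 FPKM (4.16-fold, adjusted p = 1.2e-05), DOF1.8 Ob_27717 (3.28-fold, adjusted p = 0.0020) and DOF3.6 Ob_25733 (3.22-fold, adjusted p = 1.0e-04). They were downward for DOF2.4 Ob_13654, from 3.66 and 3.76 FPKM to 0.32 and 0.48 FPKM (9.27-fold, adjusted p = 2.7e-04), DOF2.1 Ob_27716 (4.66-fold, adjusted p = 5.1e-05) and DOF3.4 Ob_10705 (3.93-fold, adjusted p = 7.5e-04). The calls of DOF1.8 and DOF3.4 were lost without control replicate 1 or either chilling replicate (adjusted p of up to 0.050 and 0.019), and that of DOF3.6 without either control replicate (adjusted p = 0.011 for both). DOF1.8 also lost it with no filter and with no trend (adjusted p = 0.015 for both). DOF5.4 Ob_23246, the most abundant of the list, fell from 29.65 and 27.96 FPKM to 13.66 and 13.46 FPKM, 2.12-fold lower (adjusted p = 1.9e-05), and it came under the 2-fold limit with TPM.

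Upstream of CO and the CDFs, 77 unigenes matched clock and light regulators and 68 were tested. Of these, 16 rose and 16 fell (23.5% each, beside 11.9% and 13.8% of all tested unigenes), with a median log2 difference of -0.10. The evening-complex gene ELF4 had the largest ratio, with Ob_14954 rising from 0.27 and 0.26 FPKM to 39.23 and 42.67 FPKM (155-fold, adjusted p = 1.9e-07). Both ELF4 unigenes and 3 of 5 for its partner ELF3 rose, while 1 ELF3 unigene fell.

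LHY and the REVEILLE proteins are Myb factors of the clock, most of them active in the morning. LHY Ob_36772 had 20.62 and 15.28 FPKM in the control libraries and a listed 0 in the chilling ones (adjusted p = 3.9e-06), and RVE7 Ob_33550 fell from 103.56 and 101.48 FPKM to 0.65 and 0.72 FPKM (150-fold, adjusted p = 2.1e-08). The unigenes named RVE1 split. Ob_30053 fell from 71.82 and 75.25 FPKM to 5.0 and 4.18 FPKM (16.02-fold, adjusted p = 2.1e-07). Ob_32844 and Ob_30869 rose 41.4-fold (adjusted p = 3.5e-07) and 37.9-fold (adjusted p = 9.6e-08). Their Swiss-Prot E-values are 3e-59 (Ob_30053), 1e-47 (Ob_32844) and 5e-16 (Ob_30869). The best nr match of Ob_30869 is a putative At5g37260-like protein of *Solanum chilense*. Both RVE8 unigenes fell.

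Pseudo-response regulators, which follow each other through the day in *Arabidopsis* from APRR9 in the morning to APRR1 (TOC1) in the evening, differed by name. The single tested APRR9 and APRR7 unigenes fell, as did 2 of 4 matching PRR73 of rice, 2 of 3 for APRR1 rose, and APRR5 had 3 that rose and 2 that fell. The names differ in strength. APRR9 Ob_15311 has an E-value of 2e-06 and an APRR5-like tomato protein as its best nr match, while APRR7 Ob_36521 has an E-value of 1e-170. The APRR1 unigenes that rose have E-values of 4e-167 (Ob_34661) and 7e-07 (Ob_14326). No order over the day is read from these calls. Of the APRR5 unigenes, Ob_25816 rose 15.5-fold (adjusted p = 4.1e-07), and Ob_14285, at 3.38 and 5.82 FPKM in the control, is listed at 0 after chilling (adjusted p = 2.6e-04, and 0.014 without either chilling replicate, which loses the call).

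FKF1 and GIGANTEA, the pair that removes CDF protein in *Arabidopsis*, were looked at for that role after their values were seen. The single tested FKF1 unigene, Ob_34619 (Swiss-Prot name ADO3), rose from 17.08 and 17.18 FPKM to 64.03 and 63.81 FPKM, 3.73-fold higher (adjusted p = 2.8e-07). GIGANTEA Ob_36619, the most abundant of the clock list, was at 84.82 and 83.4 FPKM in the control and 117.36 and 119.07 FPKM after chilling, 1.41-fold higher and not called, and 1 of the 5 tested GI unigenes rose. None of the 4 cryptochrome unigenes was called, and 1 of 12 matching COP1, which marks CO protein for degradation in the dark, was called higher.

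**Figure D4:**
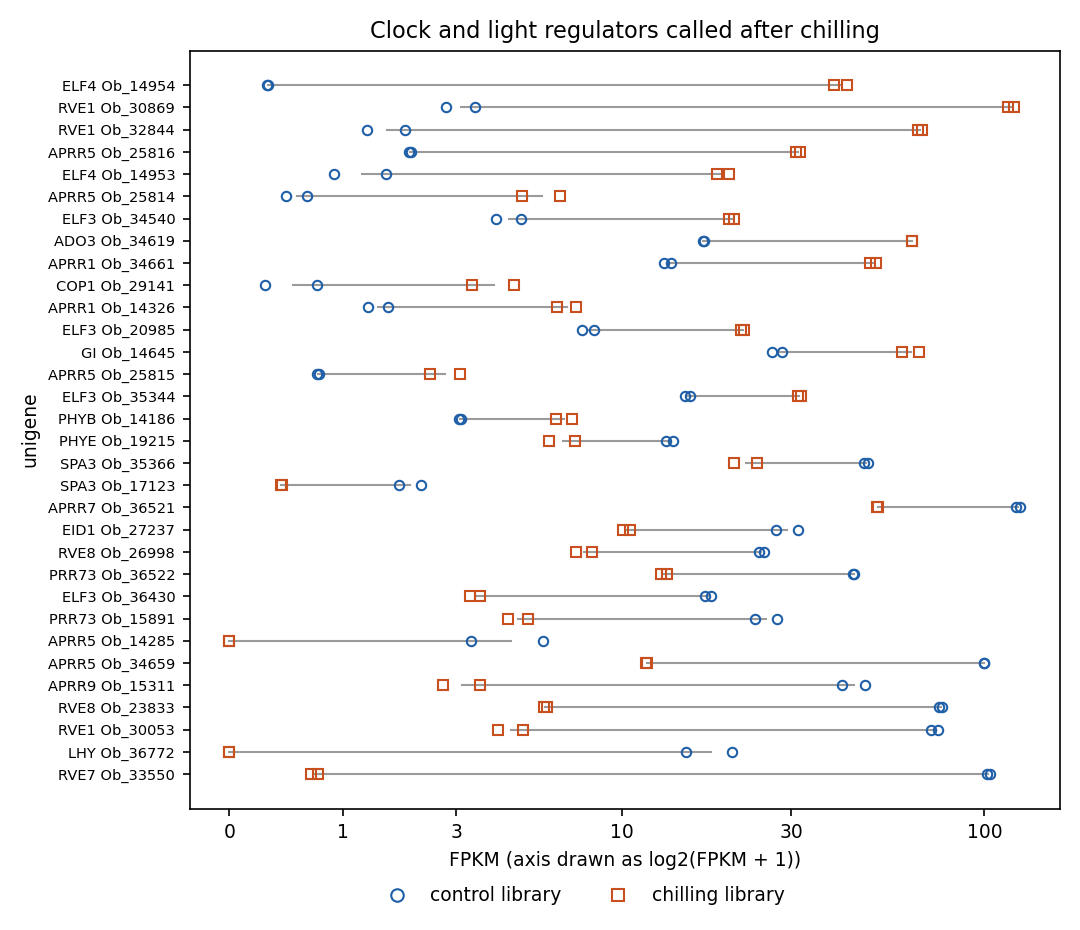
FPKM of the 32 clock and light unigenes called in the test, on an axis drawn as log2(FPKM + 1), with circles for control libraries, squares for chilling libraries and grey lines between the means. The upper 16 rose after chilling, led by ELF4 Ob_14954 at 155-fold, and the lower 16 fell, with RVE7 Ob_33550 at 150-fold in the lowest line.

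NF-Y proteins carry CO to DNA by binding its CCT domain, and TOPLESS proteins serve CDFs as corepressors in *Arabidopsis*. Of 45 such unigenes 40 were tested, and 1 was called higher (2.50%, beside 11.9% of all tested unigenes) and 4 lower, where 13.8% of all were, with a median log2 difference of 0.16. With TPM the balance turned, to 6 higher and 4 lower. NFYA5 Ob_33433 rose from 4.96 and 5.64 FPKM to 19.94 and 20.57 FPKM (3.82-fold, adjusted p = 1.0e-05), and NFYA7 Ob_20174 fell from 44.61 and 41.3 FPKM to 3.39 and 2.76 FPKM (13.97-fold, adjusted p = 7.0e-07). The unigene named TPL, Ob_32330, fell from 33.69 and 34.12 FPKM to 13.16 and 13.65 FPKM (2.53-fold, adjusted p = 4.7e-06). Its best nr match is a topless-related protein 4-like sequence of tomato, and whether it is TOPLESS itself was not tested. The calls of nfyB Ob_07292, a weak match to a *Dictyostelium* protein (3.60-fold lower, adjusted p = 0.0039), and TPR1 Ob_39582 (3.09-fold lower, adjusted p = 0.0047) were lost when any 1 library was left out (adjusted p from 0.016 to 0.053 and from 0.013 to 0.046) and with no filter (adjusted p = 0.018 and 0.013), and that of nfyB also with a pseudocount of 0.1 and with no trend (adjusted p = 0.010 and 0.016). The most abundant, NFYC1 Ob_19665, was at 181.98 and 183.96 FPKM in the control and 169.76 and 172.52 FPKM after chilling and was not called, and its small log2 difference changed sign with TPM, from -0.10 to 0.08.

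The list of flowering genes held 20 unigenes and was not limited to genes downstream of CO, as it took in FD and SVP. Of the 20, 16 were tested, 2 were called higher and 2 lower, with a median log2 difference of 0.30. These are 12.5% each, close to the 11.9% and 13.8% of all tested unigenes. With TPM it was 4 higher and 1 lower. SOC1 Ob_18977, a floral integrator activated through FT, fell from 21.2 and 20.53 FPKM to 3.1 and 3.49 FPKM (6.33-fold, adjusted p = 3.4e-06), and none of the 5 other tested SOC1 unigenes was called. The meristem gene AP1A Ob_17539 rose from 0.43 and 0.73 FPKM to 4.99 and 5.34 FPKM (8.91-fold, adjusted p = 1.5e-04), a call narrowly lost without chilling replicate 2 (adjusted p = 0.010). The FT unigene Ob_07584, picked for mention after its values were seen, was at 1.71 and 2.81 FPKM in the control and 2.9 and 2.67 FPKM after chilling, with overlapping groups (adjusted p = 0.36).

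The florigen homologue HD3A Ob_09877, named for the rice gene, was at 0 and 0.68 FPKM in the control and 2.45 and 2.41 FPKM after chilling (adjusted p = 0.0053), and FD Ob_13261, the bZIP partner of FT, was at 5.58 and 7.92 FPKM in the control and 3.15 and 3.26 FPKM after chilling (2.11-fold lower, adjusted p = 0.0050). The call of FD was lost when any 1 library was left out and that of HD3A without control replicate 1 or either chilling replicate, with an adjusted p of up to 0.066 for FD and 0.060 for HD3A. Both were also lost with no filter (adjusted p = 0.023 for both) and with no trend (adjusted p = 0.022 for both), FD with TPM (adjusted p = 0.014) and HD3A with a pseudocount of 0.1 (adjusted p = 0.035). SVP Ob_17146, a repressor of flowering and the most abundant of this list, was at 162.17 and 163.29 FPKM in the control and 233.06 and 244.37 FPKM after chilling, 1.47-fold higher and not called.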

How the data were processed

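RNA of leaves was sequenced in 4 libraries, 2 per group. The authors trimmed and pooled the reads, assembled them with Trinity, kept the longest isoform of a gene as its unigene, annotated it with BLASTX at an expectation value of 1e-05 and computed FPKM with RSEM. Tool versions are not given in the sources used here. The deposited FPKM of the 42816 unigenes were used as they are. The authors' lists of changed genes hold their log2 fold change, p-value and FDR and 8 repeated per-sample columns, none of which was used.

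The log2(FPKM + 1) values of the 33036 unigenes whose mean FPKM reached 1 were fitted by group with limma (3.58.1, under R 4.3.3), after a test on simulated data. The prior variance followed the mean level, and there was no covariate. Read counts were not analysed here, so limma took the place of the authors' edgeR, with their thresholds kept. Fold changes printed are ratios of mean FPKM, while p-values and log2 differences come from log2(FPKM + 1), a scale that understates the change of low unigenes.

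The members and the gene lists were chosen with earlier results of these data known. Lists were taken by words in the Swiss-Prot description, which also brought in AGL86 (flowering) and EID1 (clock). Named unigenes are the 8 members, all others with their gene names, from each list the 4 called upward and the 4 called downward with the largest ratios, or fewer where fewer were called, and its most abundant tested unigene, and the unigene nearest to each member. Alternatives were other pseudocounts, filters, scalings, prior settings and thresholds, a replicate block, and leaving out each library. Summaries and figures were made in Python 3.11.15 with pandas 2.3.3, numpy 2.4.6 and matplotlib 3.10.9.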

Additional observations from a re-analysis of the deposited data

How the results depend on the processing

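The 8 members kept their direction and stayed at least 2-fold apart, 5 higher and 3 lower, under TPM, median-ratio scaling, a difference of mean log2(FPKM + 1) and without each library in turn. Leaving out a library moved a member's log2 ratio by at most 0.31. TPM moved the median of all unigenes from -0.003 to 0.141 on the log2 scale and the share of higher among all calls from 46.3% to 58.5%, and median-ratio scaling moved the median to 0.008. With TPM, NFYC1 Ob_19665 changed sign to 0.08 (-0.10 with FPKM), since the scaling itself raises every chilling value.

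With a mean FPKM of at least 5, which tests fewer unigenes, 2035 were called higher and 2193 lower, and the counts were 2 higher for other Dof proteins, 0 higher and 1 lower for flowering genes and 2 lower for NF-Y and corepressor partners. For flowering genes the count of 2 higher became 1 with a pseudocount of 0.1, 4 with TPM and 1 with no trend, and the 2 lower became 1 with no filter, with TPM and with no trend. For NF-Y and corepressor partners the 1 higher became 6 with TPM and 2 with median-ratio scaling. The cause was not tested beyond the construction of each setting. Leaving out each library, which lowers the residual degrees of freedom, gave 1748 to 2425 calls higher and 2251 to 2355 lower. Over the same settings other Dof proteins had 2 to 3 higher and 4 to 6 lower, flowering genes 0 to 2 higher and 1 to 2 lower, and NF-Y and corepressor partners 1 to 2 higher and 2 to 3 lower.

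Same-numbered libraries did not deviate together (correlation 0.008). With 2 libraries per group, this cannot show whether the numbers pair them. With a replicate block, 3576 unigenes were called higher and 4102 lower, and of the 41 named unigenes outside the members only TPR1 Ob_39582 lost its call (adjusted p = 0.010). With no read counts in the files used here, no counting error is given for low values such as those of Ob_23546 after chilling.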

Other observations

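The unigene nearest to each member over the 4 values of log2(FPKM + 1), among 20214 tested unigenes with a Swiss-Prot gene name, was in no case a CONSTANS-like or Dof unigene. The distances are Euclidean on that scale, they rest on 4 libraries in 2 groups, and they are descriptions with no test. For the members with lower levels after chilling, the nearest unigenes were named for chloroplast proteins. COL5 Ob_26837 lay nearest to DIT1 Ob_31316, a dicarboxylate transporter of the chloroplast envelope, at 137.26 and 133.6 FPKM in the control and 5.24 and 5.61 FPKM after chilling (distance 0.861). CDF3 Ob_24578 lay nearest to CAO Ob_21873, the oxygenase that makes chlorophyll b, at 55.77 and 55.98 FPKM in the control and 1.64 and 1.33 FPKM after chilling (distance 0.472). COL5 Ob_23546 lay nearest to RCAA Ob_05297, a Rubisco activase, at 30.54 and 30.23 FPKM in the control and 0.48 and 0.24 FPKM after chilling (distance 0.552).

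For the members with higher levels after chilling, the nearest unigenes included chloroplast proteins as well. COL11 Ob_25844 lay nearest to LTI6A Ob_11584, a small hydrophobic protein named for its low-temperature induction in rice, at 62.45 and 55.09 FPKM in the control and 223.5 and 230.24 FPKM after chilling (distance 0.264). COL10 Ob_36001 lay nearest to LSF1 Ob_32139, a chloroplast protein of starch breakdown, at 3.93 and 4.23 FPKM in the control and 44.42 and 44.32 FPKM after chilling (distance 0.268). The COL9 members lay nearest to the protein kinase APK2B Ob_07206, described as chloroplastic (Ob_24652, distance 0.211), the esterase CSE Ob_25724 (Ob_35177, distance 0.347) and the mitochondrial COX1 Ob_17224 (Ob_35999, distance 0.171).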
